A study of Mus musculus with 12 samples.

Results

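Integrins, the cell surface receptors that hold cells to their matrix and to one another, and laminins, the large glycoproteins of basement membranes, were followed across mouse stromal cells of marrow and bone, before and after purification. Every row of the deposited count table whose symbol names an integrin chain or a laminin chain was taken. These were 37 of the 53819 rows, 26 integrins with 18 alpha and 8 beta chains and 11 laminins. By the known partners and ligands of their products they were read in 3 classes, with 8 leukocyte integrins (Itgal, Itgam, Itgax, Itgad, Itgae, Itga4, Itgb2 and Itgb7), 18 matrix-binding integrins and 11 laminins.

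All 12 libraries came from wild-type mice of unstated age, and the labels name no agent given to any group. Marrow from the hind limbs and pelvis was grown on collagen I in medium without ascorbic acid under hypoxia, and after passage 1 it was taken as it was (BM nonsorted) or flow sorted (BM sorted) for cells with Sca-1 and CD51 and without F4/80, Ly6C and CD45. CD31 is listed as a further excluded marker in the series' design text but not in the samples' treatment protocol. Collagenase I released bone-associated cells (BAC) from fragments of the hind limb bones, which were used whole (BAC nondepleted) or after magnetic removal of cells bearing F4/80, Ly6C or CD45 (BAC depleted). Each of these 4 groups held 3 libraries, and the labels do not say whether the bone-associated cells were cultured. Tissue, collagenase release and growth conditions therefore cannot be told apart in any comparison of marrow with bone-associated cells. Between the purified groups the method of purification differed as well. Below, marrow and bone name these groups of libraries only. CD51 is the product of Itgav, a member, so the sort selected on that protein.

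An integrin is a pair of one alpha and one beta chain, and the pair decides what it binds. Pairs with Itgb2 or Itgb7 occur on blood cells and bind adhesion molecules of other cells, whereas pairs with Itgb1 bind collagens, laminins or fibronectin and pairs with Itgav bind proteins that carry an RGD sequence. A laminin is a cross-shaped trimer of one alpha, one beta and one gamma chain, and in marrow and bone laminins lie around vessels, fat cells and stromal cells, where integrins with Itga3, Itga6 or Itga7 bind them.

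The bases just before the start of a leukocyte integrin gene that was near 0 in both purified groups, of one that was low in both but higher in BAC depleted than in BM sorted, and of 2 collagen receptor genes that differed in opposite directions between marrow and bone are shown first, as examples of the patterns described below. The RefSeq promoter table (GRCm38.p6) held 23 of the 37 members in 26 windows, and the 250 bases before each start were searched on both strands for GAGGAAG (the core bound by PU.1, a myeloid factor), TGANTCA (AP-1) and TGTGGTT (RUNX). Itgam lies at chr7:128062390-128062639 on the plus strand, Itga4 at chr2:79255176-79255425 on the plus strand, Itga1 at chr13:115101965-115102214 on the minus strand and Itga11 at chr9:62677605-62677854 on the plus strand. Each window runs 5′ to 3′ along the gene, and capitals mark a match to GAGGAAG or its reverse complement.
Itgam: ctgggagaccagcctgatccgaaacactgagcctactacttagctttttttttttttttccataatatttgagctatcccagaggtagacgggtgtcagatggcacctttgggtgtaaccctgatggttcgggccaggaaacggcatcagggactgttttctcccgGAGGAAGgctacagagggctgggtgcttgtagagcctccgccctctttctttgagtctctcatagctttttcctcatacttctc
Itga4: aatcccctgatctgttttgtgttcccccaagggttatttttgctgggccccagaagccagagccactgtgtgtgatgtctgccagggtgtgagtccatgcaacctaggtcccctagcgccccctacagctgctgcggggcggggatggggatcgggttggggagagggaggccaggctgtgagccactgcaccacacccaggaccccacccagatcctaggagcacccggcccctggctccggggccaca
Itga1: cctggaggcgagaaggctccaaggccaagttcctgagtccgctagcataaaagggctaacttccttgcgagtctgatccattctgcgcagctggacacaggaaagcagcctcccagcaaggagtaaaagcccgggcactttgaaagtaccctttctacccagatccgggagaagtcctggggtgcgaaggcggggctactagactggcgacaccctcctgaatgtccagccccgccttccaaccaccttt
Itga11: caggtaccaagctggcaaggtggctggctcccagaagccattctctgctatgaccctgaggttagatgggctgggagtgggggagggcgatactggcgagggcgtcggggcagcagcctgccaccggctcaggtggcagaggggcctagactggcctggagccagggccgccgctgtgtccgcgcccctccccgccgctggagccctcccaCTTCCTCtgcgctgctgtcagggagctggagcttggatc

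The GAGGAAG letters began 84 bases before the start of Itgam on its own strand and 39 bases before that of Itga11 on the other strand, and neither Itga4 nor Itga1 had them in this window. They stood in 1 of 4 windows of leukocyte integrins, 4 of 16 of matrix-binding integrins and 2 of 6 of laminins, beside 10.6% of all 32851 windows of the table. TGANTCA was found in 1 of the 26 members' windows, that of Itgax, beside 6.75% of all windows, and TGTGGTT in 1, of a matrix-binding integrin, beside 4.4%. A match describes letters only, and no binding was measured.

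Library totals were 27937709 to 32164725 counts. The labels do not say whether the libraries of a group came from separate animals or cultures, so p-values measure the spread between these libraries. That spread may be technical, though in BAC depleted only in part. A list of 12 macrophage markers summed to 11.1 to 44.3 counts scaled to library size (CPM) in BM sorted, 5155 to 5831 in BM nonsorted, 12.5 to 64.6 in BAC depleted and 13079 to 14785 in BAC nondepleted, so their levels were far lower in both purified groups than in the unpurified ones. Ptprc, which encodes CD45, had 4, 9392, 0 and 19945 counts in the same order. All 8 stromal markers averaged above 1 CPM in each group. BAC depleted 1 stood apart, with 43406 counts of Xist and 0 of Ddx3y where the other libraries held at most 16 Xist counts. Ddx3y, a gene of the Y chromosome, stood at 158 and 244 CPM in BAC depleted 2 and 3. The libraries of that group thus did not all come from the same animal or sex, and values without BAC depleted 1 are given below. Exons of 12 members (Itgam, Itgad, Itga4, Itga1, Itga10, Itga7, Itgb4, Itga8, Itgav, Lama2, Lama3 and Lamc3) share bases with another gene in GENCODE M21, and their counts may hold reads of that partner.

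Of the 37 members, 36 passed the filter on low counts and were tested, and Itgae, the alpha chain that binds E-cadherin, did not, at 0.0671 to 0.240 CPM. Itgb1, the common beta chain of collagen, laminin and fibronectin receptors, was the highest member per kilobase of exon in all 4 groups, at 399 ± 39.8 CPM per kilobase in BM sorted, 432 ± 107 in BM nonsorted, 315 ± 92.9 in BAC depleted and 369.6 ± 54.9 in BAC nondepleted (mean ± SD, n = 3, as for all such values here). In both marrow groups Itga11 and then Itga5 followed it by mean, with 219 ± 56.0 and 114 ± 26.2 CPM per kilobase in BM sorted. Libraries of Itga11 and Itga5 overlapped in BM nonsorted. Those of Itga5 overlapped those of the next member, Itgb5, a partner of Itgav, in both marrow groups. In both bone-associated groups Itgb5 followed Itgb1, with 91.0 ± 30.4 in BAC depleted. There its libraries overlapped those of the next member, Itga1, at 44.1 ± 22.2. Among laminins Lamb1 was first in both marrow groups (52.9 ± 0.768 in BM sorted) and Lamb2 in both bone-associated groups (91.6 ± 24.2 in BAC depleted). The libraries of Lamb1 in BM nonsorted overlapped those of Lamc1, the next laminin.

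**Figure D1:**
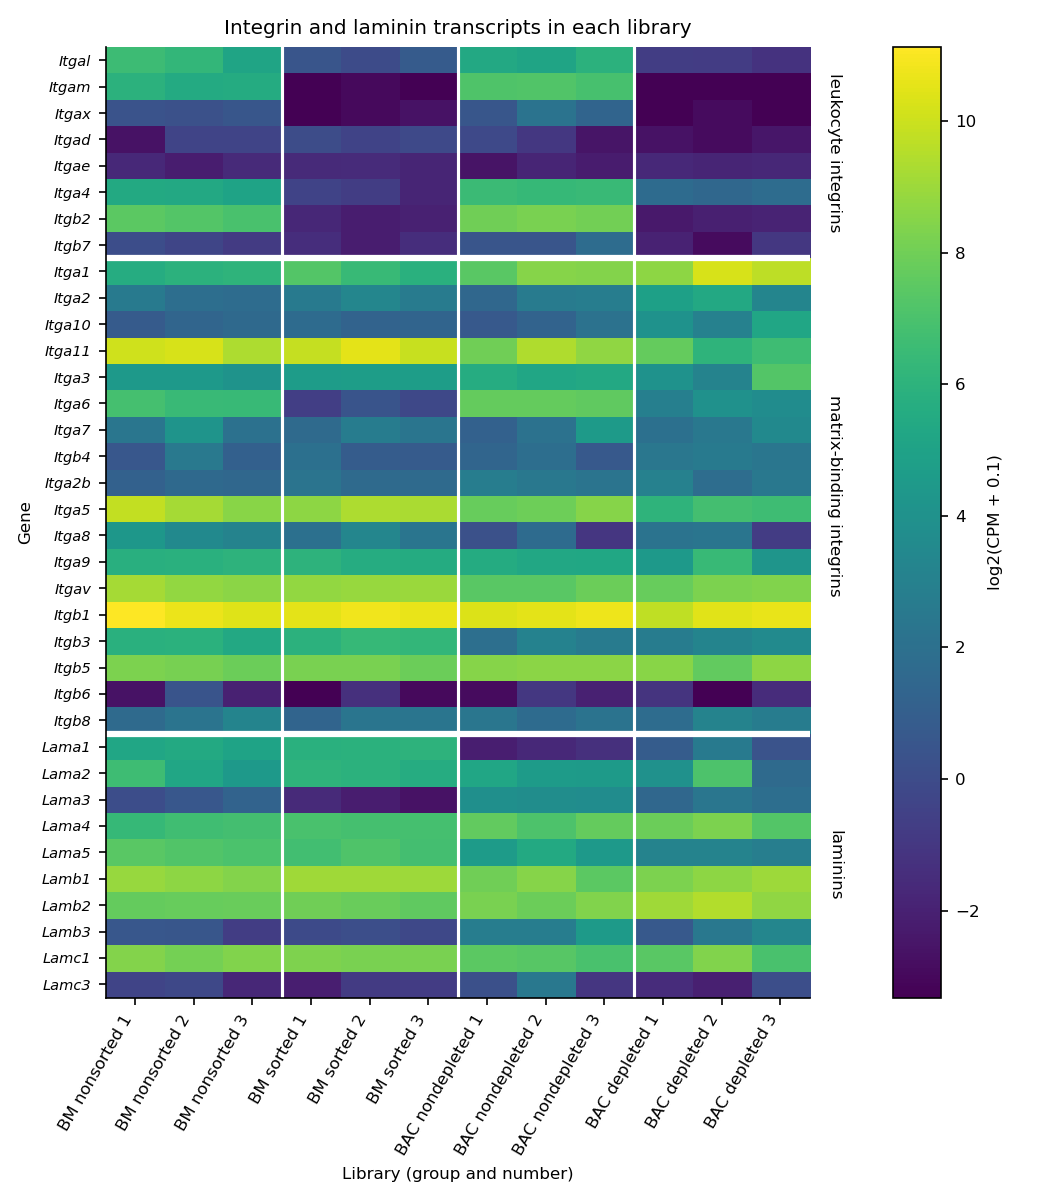
Level of 36 of the 37 members (rows, by class) in each of the 12 libraries (columns, by group) as log2 of CPM plus 0.1. The leukocyte integrins Itgam, Itgb2, Itgal and Itga4 are dark in the purified groups and bright in the unpurified ones, while Itgb1 is bright in all libraries.

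Leukocyte integrins were lower after sorting of the marrow cultures, while the matrix-binding class and the laminins had 1 call each. Between BM sorted and BM nonsorted, 7 of 36 members were called (edgeR's quasi-likelihood test, Benjamini-Hochberg adjusted p under 0.05), all lower after sorting, against 6.23% of all genes in either direction, 6.06% lower and 0.166% higher. These were 5 of 7 leukocyte integrins, 1 of 18 matrix-binding integrins (Itga6) and 1 of 11 laminins (Lama3). The median log2 fold change was -5.74 for the leukocyte class, -0.05 for the matrix-binding class and -0.06 for laminins, beside 0.00 over all genes. For 14 members no library of one group fell within the range of the other, beside 28.7% of all genes. Depletion of the bone-associated cells was followed by more calls, 16 of 36, with 5 higher and 11 lower, beside 37.3% of all genes in either direction, 17.4% higher and 19.9% lower. Here 6 of 7 leukocyte integrins were lower (median -6.67), the matrix-binding class had 3 higher and 3 lower (median 0.26) and the laminins 2 higher and 2 lower (median 0.38), beside a median of 0.05 over all genes. In this comparison 17 members did not overlap between the groups, beside 46.3% of all genes, and without BAC depleted 1 the calls were 18, with 7 higher and 11 lower.

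**Figure D2:**
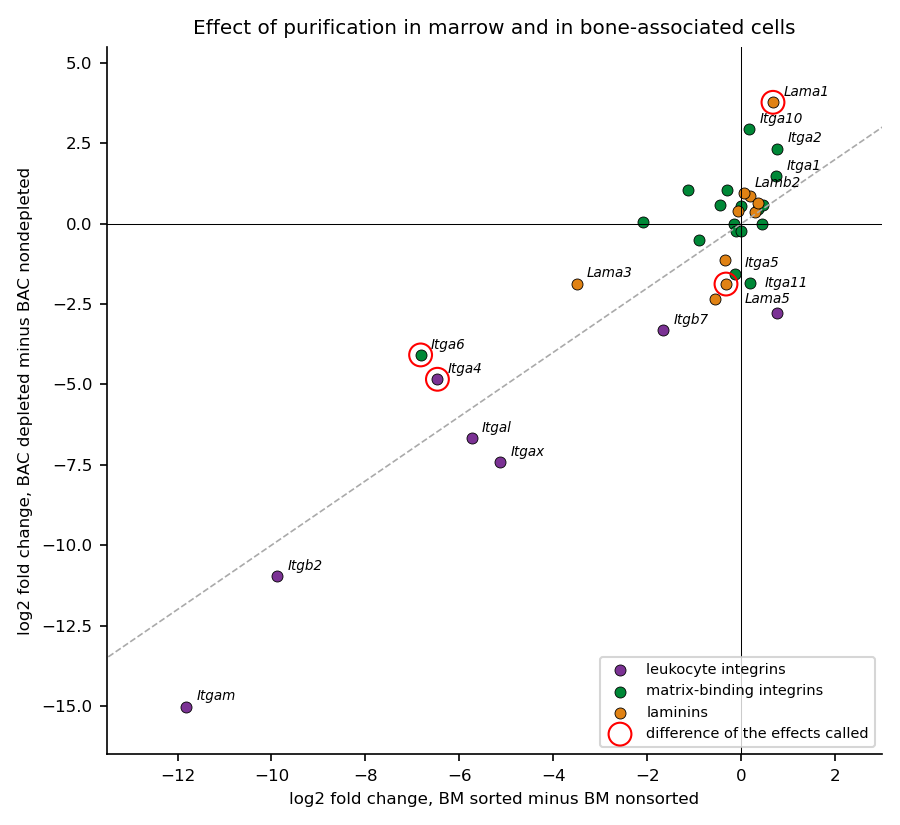
Log2 fold change on purification of 35 tested members in marrow (x axis, BM sorted minus BM nonsorted) and in bone-associated cells (y axis, BAC depleted minus BAC nondepleted), coloured by class, with equal values on the dashed line and red rings on members whose difference between both effects was called. Labels mark members called on either axis; fitted values of Itgam and Itgax depend on the prior count, since the purified groups held 0 to 3 counts.

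Summed over the 8 leukocyte integrins, the class came to 315 ± 70.5 CPM in unsorted and 3.16 ± 0.486 CPM in sorted marrow, and at 4.12 ± 0.462 in BAC depleted and 549.5 ± 21.0 in BAC nondepleted. From bulk RNA, fewer cells of a type and less RNA per cell cannot be told apart. The 12 macrophage markers moved the same way, with 11 called lower after sorting and 12 after depletion, and their part in these results was not tested. Neutrophil markers summed to at most 2.67 CPM and lymphocyte markers to at most 0.472 CPM in any library.

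Itgb2 (CD18), the beta chain shared by the leukocyte alpha chains L, M, X and D, read 180.2, 152 and 124 CPM in BM nonsorted libraries 1 to 3 and 0.201, 0.120 and 0.153 in BM sorted. In bone-associated cells it read 252, 300.3 and 265 CPM before and 0.0954, 0.141 and 0.167 after depletion. The purified libraries were all under 1 CPM and the unpurified ones all above 100 CPM. Log2 fold changes were -9.88 ± 0.24 on sorting (adjusted p = 1.02e-08) and -10.97 ± 0.25 on depletion (4.02e-09, and -10.75 without BAC depleted 1).

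Itgam (CD11b), which with Itgb2 forms the complement receptor of macrophages and neutrophils, read 63.3, 45.7 and 48.0 CPM in BM nonsorted and 0, 0.0300 and 0 in BM sorted. It read 142, 149 and 123 CPM in BAC nondepleted and 0 in all BAC depleted libraries. With 1 count over BM sorted against 5135 over BM nonsorted, the ratio was 5013 with a 95% counting interval of 899 to 198057. In BAC depleted 0 counts stood against 11566, and with a floor of 3 counts set for that group Itgam was at least 3864-fold lower than in BAC nondepleted. Intervals and floors cover counting error only. No purified library came near an unpurified one, and both differences were called (adjusted p = 2.56e-07 and 9.47e-08, the latter 4.21e-07 without BAC depleted 1).

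Itgal (CD11a), which with Itgb2 forms the leukocyte receptor for ICAMs, read 94.6, 75.4 and 35.0 CPM in BM nonsorted and 1.28, 0.899 and 1.65 in BM sorted. In bone-associated cells the values were 42.6, 34.1 and 62.0 CPM before and 0.509, 0.495 and 0.333 after depletion. Groups did not overlap within either tissue, and BM nonsorted 3 was the lowest of the unsorted cultures. The log2 fold change was -5.74 ± 0.44 on sorting (adjusted p = 1e-05) and -6.67 ± 0.48 on depletion (3.97e-06, and -6.77 without BAC depleted 1). Itgax (CD11c), known from dendritic cells and macrophages, was low, with 1.20, 1.11 and 1.38 CPM in BM nonsorted and 1.38, 4.36 and 2.44 in BAC nondepleted. It had 3 counts over BM sorted and 1 over BAC depleted, which gave ratios of 39.4 (95% counting interval 13.2 to 194) and 225 (40.1 to 8946). All unpurified libraries lay above all purified ones, and both differences were called (adjusted p = 0.00126 and 0.000111, the latter 0.000641 without BAC depleted 1).

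Itga4, the alpha chain of the receptor for VCAM-1 and fibronectin on blood cells, read 43.4, 41.5 and 33.0 CPM in BM nonsorted and 0.638, 0.509 and 0.184 in BM sorted. It read 92.0, 82.6 and 88.5 CPM in BAC nondepleted and 3.21, 2.69 and 3.29 in BAC depleted. It was low in both purified groups, yet every BAC depleted library lay above every BM sorted library. Log2 fold changes were -6.47 ± 0.32 on sorting (adjusted p = 3.3e-07), -4.84 ± 0.28 on depletion (6.36e-07) and -2.79 ± 0.30 for BM sorted minus BAC depleted (9.35e-05), the last 2 being -4.87 and -2.75 without BAC depleted 1. Vcam1, which encodes its ligand, stood at 399.8 ± 58.2 CPM in BAC depleted and 144 ± 53.0 in BM sorted.

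The 3 leukocyte chains left behaved less alike. Itgb7, the beta chain of gut-homing lymphocyte integrins, stood at 0.707 ± 0.243 CPM in BM nonsorted and 0.221 ± 0.0880 in BM sorted, with no call (adjusted p = 0.271). It read 1.31, 1.31 and 3.39 CPM in BAC nondepleted and 0.159, 0.0354 and 0.417 in BAC depleted, where it was called lower (-3.31 ± 0.71, adjusted p = 0.00482, and -3.17 with 0.0179 without BAC depleted 1). Itgad, an alpha chain of tissue macrophages, was under 1 CPM everywhere and did not follow the others. It read 0.0615, 0.668 and 0.673 CPM in BM nonsorted, 0.906, 0.659 and 0.827 in BM sorted, 0.0636, 0.0354 and 0.0833 in BAC depleted and 0.805, 0.400 and 0.0762 in BAC nondepleted. The sorted marrow libraries overlapped the unsorted ones and all lay above the BAC depleted ones (3.64 ± 0.97, adjusted p = 0.011, and 3.69 without BAC depleted 1). Its exons overlap 4 other genes, Cox6a2 among them, and how much of its count is theirs was not tested.

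**Figure D3:**
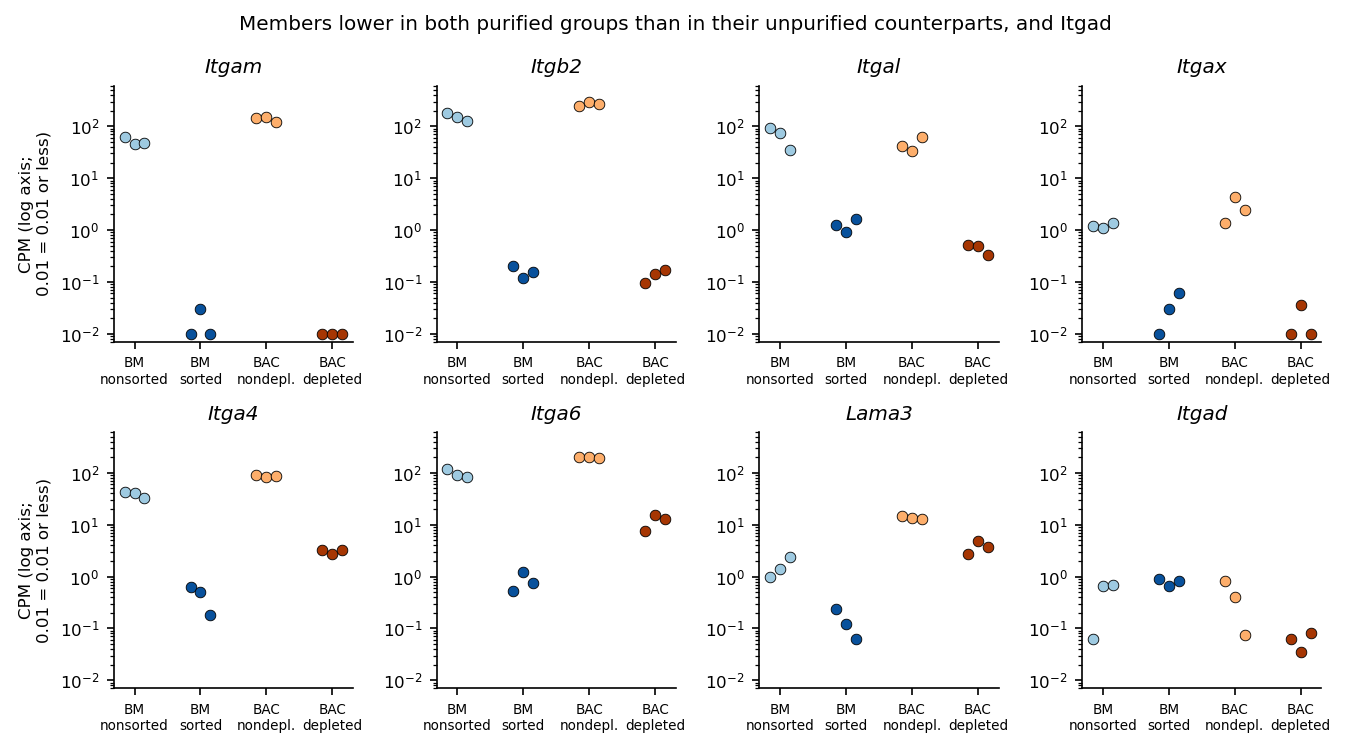
CPM of 8 members on a log axis, 1 point per library in the order 1 to 3 within each group, with values of 0.01 or less drawn at 0.01. In all panels but that of Itgad, both purified groups lie below their unpurified counterparts.

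Beyond the leukocyte class, Itga6 and Lama3 were also lower in both purified groups. Itga6, an alpha chain of laminin receptors that pairs with Itgb1 or Itgb4, read 117, 89.7 and 83.6 CPM in BM nonsorted and 0.537, 1.23 and 0.766 in BM sorted. In BAC nondepleted it read 205, 206 and 195 CPM and in BAC depleted 7.47, 15.6 and 12.8. The order was the same in marrow and bone, but BAC depleted kept more than BM sorted, without overlap. Log2 fold changes were -6.82 ± 0.37 on sorting (adjusted p = 6.9e-07), -4.08 ± 0.31 on depletion (6.19e-06) and -3.81 ± 0.33 for BM sorted minus BAC depleted (3.93e-05), the last 2 being -3.83 and -4.06 without BAC depleted 1.

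Lama3, the alpha chain of the laminin that anchors epithelia, read 0.984, 1.43 and 2.37 CPM in BM nonsorted and 0.235, 0.120 and 0.0613 in BM sorted. It read 14.6, 13.4 and 13.1 CPM in BAC nondepleted and 2.70, 4.92 and 3.67 in BAC depleted. All 4 groups were apart from one another, with BAC nondepleted highest. Log2 fold changes were -3.50 ± 0.47 on sorting (adjusted p = 0.000698), -1.86 ± 0.38 on depletion (0.00369, and -1.67 without BAC depleted 1), -4.74 ± 0.48 for BM sorted minus BAC depleted (6.91e-05, and -4.93) and -3.10 ± 0.40 for BM nonsorted minus BAC nondepleted (0.000739). Epithelial markers summed to at most 1.98 CPM in any library.

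As shares of the laminin-binding alpha chains Itga3, Itga6 and Itga7 per kilobase, Itga6 made up 69.7% ± 6.17 in BM nonsorted and 1.76% ± 0.618 in BM sorted, and Itga3 23.2% ± 0.457 and 87.1% ± 3.93. In BAC nondepleted the shares were 72.1% ± 4.27 for Itga6 and 24.0% ± 2.87 for Itga3, and in BAC depleted 22.8% ± 19.7 and 66.1% ± 25.5. The wide spread in BAC depleted came with Itga3, which read 16.4, 8.84 and 151 CPM there and 49.1, 37.0 and 41.5 in BAC nondepleted. In marrow Itga3 read 25.6, 26.7 and 25.8 CPM after and 22.8, 21.5 and 16.9 before sorting. BAC depleted 3 was far above the rest. Itga3 was not called on depletion (0.46 ± 0.79, adjusted p = 0.671), and without BAC depleted 3 it was called lower (-1.76, 0.000766). Itga7 and Itgb4, a muscle laminin receptor chain and the hemidesmosome chain, ranged from 2.11 to 23.6 CPM and 1.45 to 5.91 CPM over all libraries. Over all libraries edgeR called neither in any comparison, and without BM sorted 1 it called Itgb4 between the purified groups.

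The 4 collagen receptor alpha chains were all called on depletion of the bone-associated cells, beside 37.3% of all genes. On sorting of marrow edgeR and DESeq2 called 0 of the 4, and 0 had an unadjusted p under 0.05 in edgeR. Only 6.23% of all genes were called by edgeR on sorting, so 0 of 4 is no result about these chains. Itga1, the receptor chain that favours the collagen of basement membranes, read 174, 367 and 346 CPM in BAC nondepleted and 400.1, 1224 and 836 in BAC depleted. Its marrow values were 49.4, 62.1 and 67.0 CPM in BM nonsorted and 156, 83.7 and 58.4 in BM sorted. Bone-associated libraries were above all marrow libraries, and depleted above nondepleted ones, with BAC depleted 1 the lowest of its group. The rise on depletion was 1.47 ± 0.46 (adjusted p = 0.0306) and was 1.80 (0.0106) without BAC depleted 1. It passed the test in 6 of 13 alternative settings, and was not called without BAC depleted 2 (0.0997) or 3 (0.0555), nor without BAC nondepleted 1 (0.1), 2 (0.0527) or 3 (0.0578).

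Itga2, a receptor chain for fibrillar collagen, read 2.68, 6.43 and 6.82 CPM in BAC nondepleted, 29.4, 41.9 and 9.46 in BAC depleted, 5.91, 3.59 and 3.39 in BM nonsorted and 5.77, 9.71 and 6.43 in BM sorted. Itga10, a collagen receptor chain known from cartilage, read 1.51, 2.36 and 4.19 CPM in BAC nondepleted, 16.5, 7.96 and 37.7 in BAC depleted, 1.69, 2.48 and 2.93 in BM nonsorted and 3.26, 2.37 and 2.42 in BM sorted. Both had their highest mean in BAC depleted, in which single libraries differed several-fold, and in the other groups both stayed under 10 CPM. They were higher after depletion by 2.34 ± 0.53 (adjusted p = 0.00711, and 2.28 without BAC depleted 1) and 2.95 ± 0.56 (0.00259, and 3.09) on the log2 scale. Cartilage markers summed to 2049 to 21867 CPM in BAC depleted, 207 to 2606 in BAC nondepleted, 2971 to 3966 in BM nonsorted and 1080 to 3937 in BM sorted. Most of the sum was Col2a1. Acan stood at 386 ± 310 CPM in BAC depleted, 12.6 ± 17.7 in BAC nondepleted, 0.920 ± 0.356 in BM nonsorted and 1.17 ± 0.834 in BM sorted. Col2a1, Col9a1 and Sox9 also had their highest mean in BAC depleted, but Matn3 in BM sorted. The part of these markers in the levels of Itga2 and Itga10 was not tested.

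Itga11, the receptor chain for fibrillar collagen of fibroblasts, went the other way. It read 1085, 1203 and 656 CPM in BM nonsorted and 941, 1457 and 979 in BM sorted, and 257, 665 and 423 in BAC nondepleted and 208, 66.8 and 101 in BAC depleted. Marrow libraries were above BAC depleted ones throughout, and BAC depleted 1 was the highest of its group. Itga11 was lower on depletion by -1.84 ± 0.47 (adjusted p = 0.0118, and -2.41 without BAC depleted 1), a call that was lost when only these 2 groups were fitted (0.0598).

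The purified groups differed in which collagen receptor chain led. Per kilobase, Itga11 made up 96.8% ± 1.64 of the collagen receptor alpha chains in BM sorted and 97.6% ± 0.991 in BM nonsorted, with Itga1 at 2.50% ± 1.59 and 1.78% ± 0.815. In BAC nondepleted Itga11 held 83.2% ± 2.90 and Itga1 15.6% ± 2.48. In BAC depleted Itga1 led with 56.2% ± 23.1 against 33.5% ± 22.4, except in BAC depleted 1, where Itga1 had 31.0% and Itga11 58.5%. All 4 chains were called between the purified groups, beside 47.4% of all genes. BM sorted was lower for Itga1 (-3.05 ± 0.49, adjusted p = 0.00082, and -3.38 without BAC depleted 1), Itga10 (-2.95 ± 0.56, 0.00194, and -3.09) and Itga2 (-1.88 ± 0.52, 0.0141, and -1.82), and higher for Itga11 (3.17 ± 0.49, 0.000663, and 3.74). Libraries of Itga2 overlapped, and its call was lost without BM sorted 1 (0.0502) or 3 (0.0547). Between the unpurified groups edgeR called 31.7% of all genes. Of the 4 chains it called Itga1 (-2.31 ± 0.48, adjusted p = 0.00637) and not the other 3, of which DESeq2's Wald test called Itga11 higher in marrow.

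**Figure D4:**
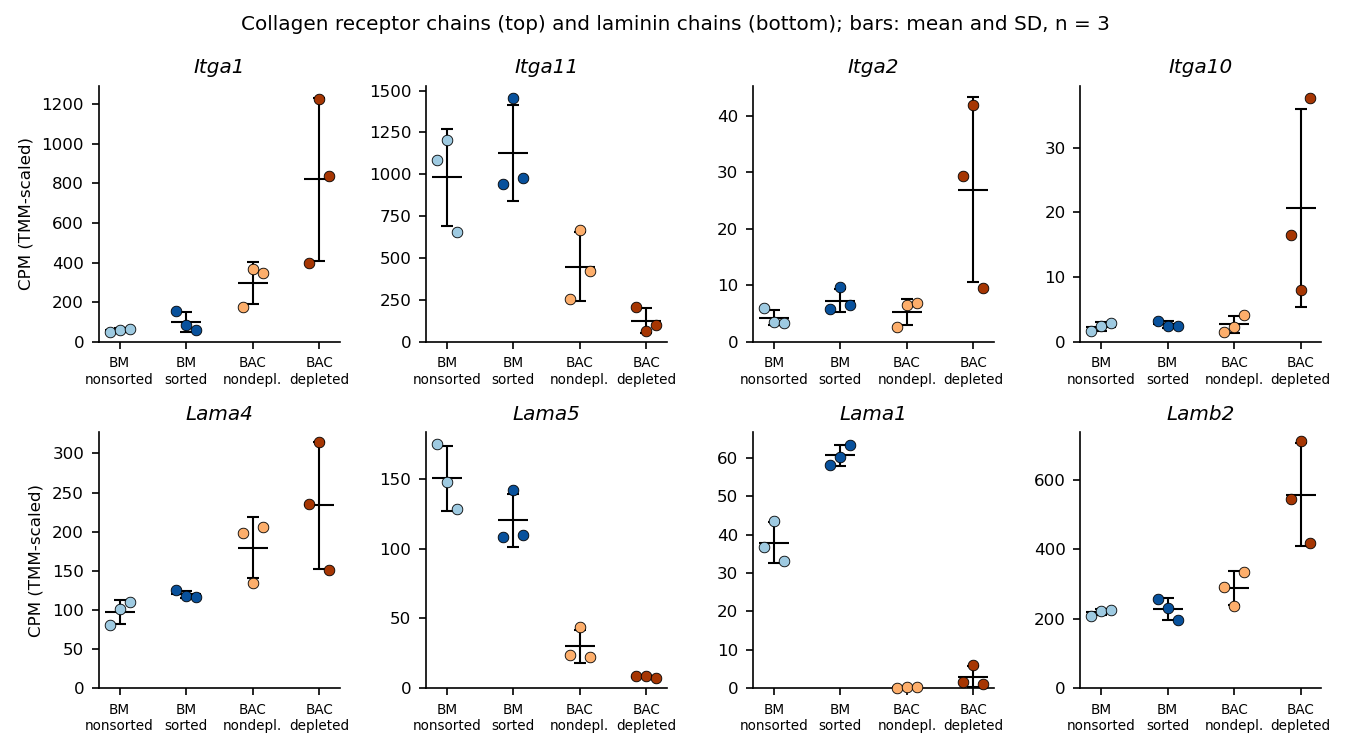
CPM of 4 collagen receptor chains (top) and 4 laminin chains (bottom), 1 point per library, with the mean and SD of each group of 3. Itga11, Lama5 and Lama1 are high in marrow, whereas Itga1, Lama4 and Lamb2 are highest in BAC depleted.

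Between the purified groups, BM sorted and BAC depleted, 17 of 36 members were called, 8 higher and 9 lower in marrow, beside 47.4% of all genes in either direction, 22.9% higher and 24.6% lower. A share of members near that of all genes is no result about the members. The libraries of 18 members did not overlap, beside 52.8% of all genes, and without BAC depleted 1 the calls were 16, with 7 higher and 9 lower. By class there were 2 higher and 1 lower among leukocyte integrins, 4 and 4 among matrix-binding integrins and 2 and 4 among laminins, with medians of 1.13, -0.58 and 0.21 beside -0.02 over all genes. The leukocyte median was the fitted value of Itgax, which had 3 counts over BM sorted and 1 over BAC depleted. Its ratio of counts was 2.62 with a counting interval of 0.210 to 138, and edgeR did not call it (adjusted p = 0.470). That median therefore gives no direction for the leukocyte class. Between the unpurified groups 17 members were called too, 8 higher and 9 lower in BM nonsorted, beside 31.7% of all genes, 14.9% higher and 16.8% lower, and 23 did not overlap, beside 56% of all genes. By class these were 0 and 3, 4 and 3, and 4 and 3, with medians of -1.14, 0.22 and 0.62 beside -0.01. The 3 leukocyte chains lower in BM nonsorted were Itgam (-1.40 ± 0.20, adjusted p = 0.00191), Itga4 (-1.16 ± 0.24, 0.00597) and Itgb2 (-0.84 ± 0.15, 0.00333), and Itga6 was lower too (-1.06 ± 0.28, 0.0166). This call of Itga6 was lost without BM nonsorted 2 (0.0636) or 3 (0.0593). The summed macrophage markers given above were also lower in BM nonsorted, and their part was not tested. The count of calls between the unpurified groups fell to 11 without BAC nondepleted 1 or BM nonsorted 1 and to 10 without BM nonsorted 2. Itgal, at 0.446 ± 0.0976 CPM in BAC depleted and 1.28 ± 0.378 in BM sorted, was called (1.49 ± 0.46, adjusted p = 0.023), and not so without BAC depleted 1 (0.0554), 2 (0.0518) or 3 (0.0762) or BM sorted 3 (0.0797).

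**Figure D5:**
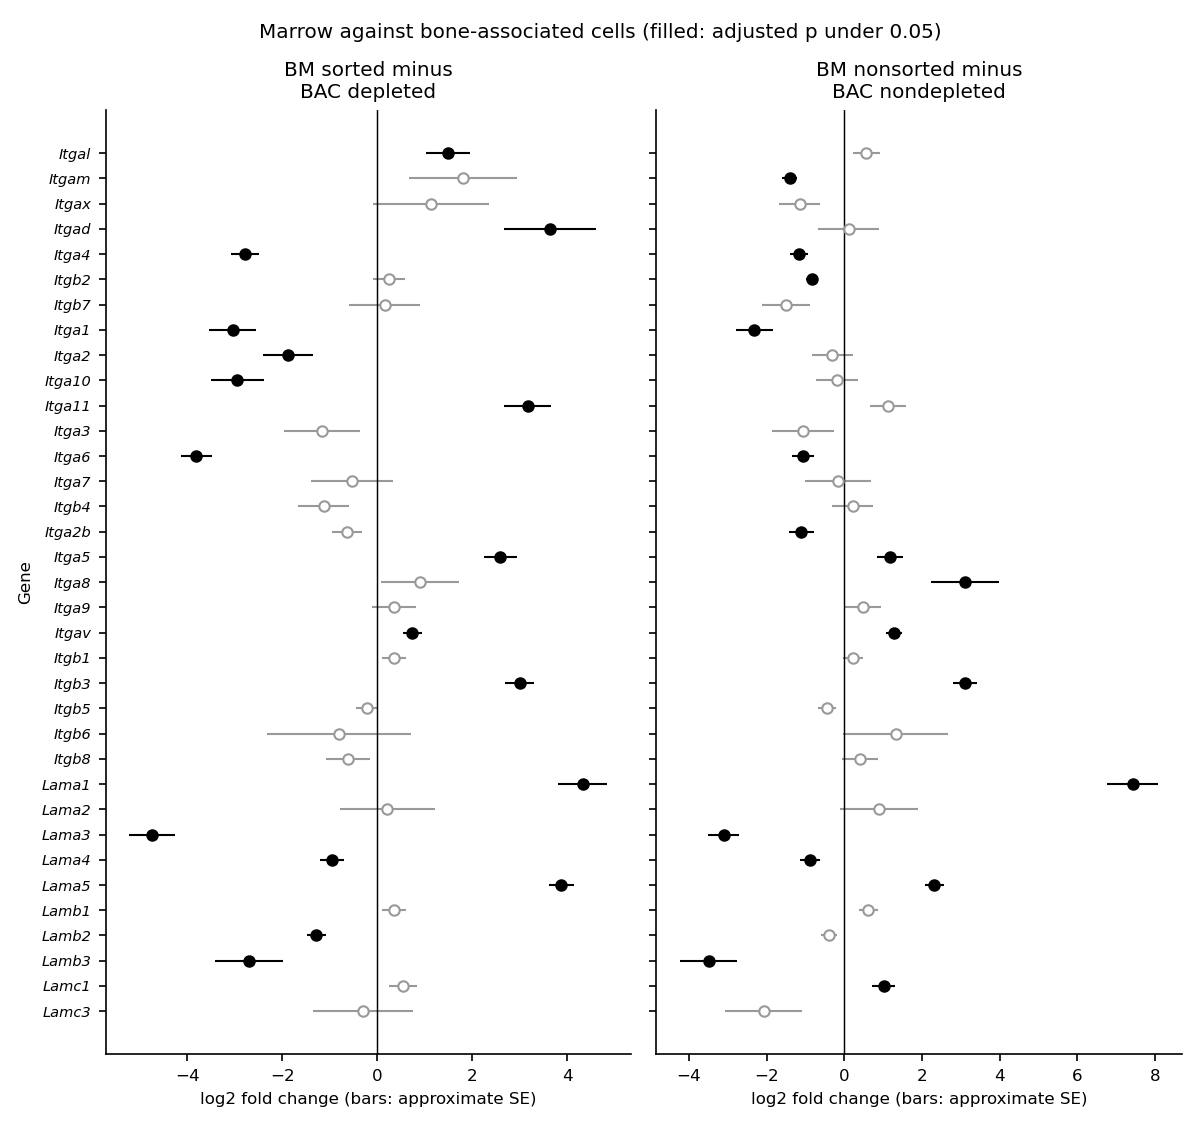
Log2 fold change of 35 of the 36 tested members between BM sorted and BAC depleted (left) and between BM nonsorted and BAC nondepleted (right), with approximate standard errors as bars and filled points where the adjusted p was under 0.05. Lama1, Lama5, Itgb3 and Itga5 lie right of 0 and Lama3, Lamb3 and Itga1 left of 0, filled in both panels.

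Among receptors for fibronectin and other RGD proteins, Itga5, Itgb3 and Itgav were called higher in marrow in both pairings, Itga8 only between the unpurified groups, where Itga2b was called lower. Itga5, the fibronectin receptor alpha chain, read 892, 582 and 384 CPM in BM nonsorted and 414, 642 and 634 in BM sorted, and 67.7, 113 and 100.2 in BAC depleted and 217, 243 and 362 in BAC nondepleted. All marrow libraries were above all bone-associated ones, and depleted libraries lay below nondepleted ones. Log2 fold changes were 2.59 ± 0.35 between purified groups (adjusted p = 0.00031), 1.18 ± 0.33 between unpurified groups (0.0235) and -1.55 ± 0.34 on depletion (0.0055), the first and last being 2.40 and -1.36 without BAC depleted 1. The call between unpurified groups was lost without BAC nondepleted 1 (0.0869) or 2 (0.0819) or BM nonsorted 1 (0.0912) or 2 (0.0546).

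Itgb3, the beta chain that joins Itgav as the vitronectin receptor of osteoclasts and vessels, read 58.5, 58.7 and 42.1 CPM in BM nonsorted, 61.2, 81.4 and 77.0 in BM sorted, 6.58, 9.16 and 11.9 in BAC depleted and 3.79, 8.36 and 6.25 in BAC nondepleted. Marrow and bone-associated libraries were far apart, and no change on purification was called in either. The log2 fold changes were 2.99 ± 0.31 (adjusted p = 7.89e-05, and 2.80 without BAC depleted 1) and 3.11 ± 0.31 (0.000297).

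Itgav, the chain for CD51 on which marrow was sorted, read 584, 441 and 391 CPM in BM nonsorted and 447, 478 and 497 in BM sorted. It read 215, 307 and 329 CPM in BAC depleted and 173, 173 and 239.9 in BAC nondepleted. Sorted and unsorted marrow overlapped, and marrow was above bone in both pairings. BM sorted exceeded BAC depleted by 0.74 ± 0.21 (adjusted p = 0.014, and 0.57 without BAC depleted 1) and BM nonsorted exceeded BAC nondepleted by 1.27 ± 0.21 (0.00218).

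Itga8, the chain for nephronectin, read 20.2, 11.7 and 8.55 CPM in BM nonsorted, 3.89, 9.71 and 4.72 in BM sorted, 4.52, 4.74 and 0.500 in BAC depleted and 1.11, 3.20 and 0.381 in BAC nondepleted. Unsorted marrow was above BAC nondepleted in every library, whereas the purified groups overlapped. The call between unpurified groups (3.10 ± 0.88, adjusted p = 0.0237) was lost without BAC nondepleted 1 (0.0833) or 3 (0.059), without BM nonsorted 1 (0.0714) or 2 (0.0514), and with no filter on low counts (0.0686). Itga2b, the platelet chain, read 2.18, 2.99 and 2.72 CPM in BM nonsorted, 4.67, 3.03 and 3.09 in BM sorted, 8.08, 3.47 and 5.33 in BAC depleted and 6.81, 5.45 and 4.69 in BAC nondepleted. It was lower in BM nonsorted than in BAC nondepleted (-1.10 ± 0.32, adjusted p = 0.0249), without overlap, and not called without BAC nondepleted 1 (0.0861) or 2 (0.0587) or any BM nonsorted library (0.0543 to 0.0854). Of the 5 other platelet genes listed, Pf4 stood at 48.7 ± 3.15 CPM in BM nonsorted and 108 ± 25.3 in BAC nondepleted. It had 5 counts over BM sorted and 5 over BAC depleted. In the same unpurified groups Ppbp stood at 0.260 ± 0.236 and 1.20 ± 0.477 CPM and Gp1ba at 0.841 ± 0.263 and 1.44 ± 0.424. Gp9 had 0 and 1 counts there, and Gp1bb had 5 and 2. The part of platelet transcripts in the level of Itga2b was not tested.

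Pericyte and smooth muscle markers summed to 4627 to 6424 CPM in BM nonsorted and 5333 to 6837 in BM sorted, but to 385 to 1173 in BAC depleted and 399 to 1002 in BAC nondepleted. Most of the sum was Acta2 and Actg2. Of the 6 markers 4 were called higher and 1 lower in BM sorted than in BAC depleted, and 5 higher and 0 lower in BM nonsorted than in BAC nondepleted. The 1 lower was Cspg4, at 85.4 ± 51.8 CPM in BAC depleted and 2.61 ± 0.981 in BM sorted. Itga5, Itgb3, Itgav, Lama5 and Lama1 were called higher in marrow in both pairings as the sum was higher. On depletion, where the ranges of the sum overlapped, Itga5 and Lama5 were called lower and Lama1 higher. There edgeR called neither Itgb3 nor Itgav over all libraries, while DESeq2's Wald test called Itgav. The part of these markers in those results was not tested. Of the matrix-binding integrins left, Itgb1 at 855 to 2232 CPM, Itgb5 at 200.0 to 401 CPM, Itgb8 at 2.45 to 8.93 CPM, Itgb6 at 0 to 1.27 CPM and Itga9, the chain for tenascin C, at 18.3 to 84.5 CPM were called in none of the 4 comparisons of groups by edgeR over all libraries. In other settings Itga9 and Itgb5 were called between marrow and bone, both when only the unpurified groups were fitted and, between the purified groups, without BAC depleted 2, and Itga9 was then also called on depletion. Itgb5 was lower in BM nonsorted than in BAC nondepleted in every library, by -0.45 ± 0.23 on the log2 scale (adjusted p = 0.157).

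Marrow and bone-associated libraries differed in their laminin alpha chains. Lama5, the broad adult alpha chain of vessel and epithelial basement membranes, read 175, 148 and 128 CPM in BM nonsorted and 108, 142 and 110.0 in BM sorted, and 8.62, 8.73 and 7.25 in BAC depleted and 24.2, 43.7 and 22.5 in BAC nondepleted. Every marrow library was above every bone-associated one, and depleted libraries lay below nondepleted ones. Log2 fold changes were 3.87 ± 0.27 between purified groups (adjusted p = 2.2e-05), 2.32 ± 0.25 between unpurified groups (0.000382) and -1.88 ± 0.25 on depletion (0.000305), the first and last being 3.90 and -1.91 without BAC depleted 1.

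Lama1, the alpha chain best known from embryos, read 36.8, 43.7 and 33.2 CPM in BM nonsorted and 58.2, 60.2 and 63.4 in BM sorted. It read 1.72, 6.12 and 1.21 CPM in BAC depleted and 0.134, 0.218 and 0.305 in BAC nondepleted. All 4 groups were apart, with a few CPM after depletion and under 1 CPM before it. BM nonsorted exceeded BAC nondepleted by 7.42 ± 0.65 (adjusted p = 0.000188), BM sorted exceeded BAC depleted by 4.32 ± 0.52 (0.000169, and 4.03 without BAC depleted 1) and it was higher after depletion by 3.78 ± 0.63 (0.00128, and 4.07).

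Lama4, the alpha chain of vessel walls and stromal cells, read 80.5, 102 and 109.9 CPM in BM nonsorted, 126, 118 and 117 in BM sorted, 235, 314 and 152 in BAC depleted and 198, 135 and 205 in BAC nondepleted. It was higher in bone, without overlap in either pairing. The log2 fold change was -0.96 ± 0.25 between purified groups (adjusted p = 0.00981, and -0.96 without BAC depleted 1). Between unpurified groups it was -0.88 ± 0.25 (0.0229), a call lost without BAC nondepleted 1 (0.0714) or 3 (0.0665) or BM nonsorted 1 (0.0824) or 2 (0.0603).

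Per kilobase, Lama5, Lama4 and Lama1 made up 34.5% ± 3.58, 32.8% ± 2.24 and 20.6% ± 1.81 of laminin alpha chains in BM sorted, and 46.1% ± 1.86, 28.9% ± 7.53 and 13.8% ± 2.01 in BM nonsorted. In BAC depleted they made up 3.40% ± 1.24, 84.2% ± 10.7 and 1.15% ± 0.512, and in BAC nondepleted 13.4% ± 7.09, 71.8% ± 8.10 and 0.111% ± 0.0434. Marrow libraries thus split the alpha chains over Lama5, Lama4 and Lama1, and bone-associated ones held mostly Lama4. Lama2, the alpha chain of muscle and Schwann cell basement membranes, read 98.0, 38.0 and 21.9 CPM in BM nonsorted, 67.2, 63.0 and 49.4 in BM sorted, 15.8, 136 and 3.08 in BAC depleted and 36.9, 24.6 and 23.7 in BAC nondepleted. Over all libraries edgeR called it in none of the 4 comparisons, and without BAC depleted 2 it was called between the purified groups. BAC depleted spanned the widest range.

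Lamb2, a beta chain known from nerve-muscle junctions and the kidney filter, read 209, 222 and 226 CPM in BM nonsorted, 258, 229.8 and 197 in BM sorted, 545, 710.5 and 417 in BAC depleted and 292, 237 and 334 in BAC nondepleted. BAC depleted was above all other libraries. It was higher after depletion by 0.95 ± 0.20 (adjusted p = 0.00417, and 0.97 without BAC depleted 1) and lower in BM sorted than in BAC depleted by -1.29 ± 0.20 on the log2 scale (0.000628, and -1.31). Lamb1, the other common beta chain, ranged from 180 to 530 CPM and was called by edgeR over all libraries in none of the 4 comparisons. It was called on depletion by DESeq2's Wald test, under upper quartile scaling and without BAC depleted 1 or BAC nondepleted 2, and between the unpurified groups without BAC nondepleted 2. Of the laminin beta chains per kilobase, Lamb2 held 41.3% ± 2.95 in BM sorted, 46.8% ± 4.96 in BM nonsorted, 67.9% ± 10.2 in BAC depleted and 62.4% ± 10.4 in BAC nondepleted.

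Lamb3, the beta chain that joins Lama3 in the epithelial laminin, read 1.41, 1.37 and 0.527 CPM in BM nonsorted, 0.839, 0.988 and 0.766 in BM sorted, 1.56, 5.45 and 10.00 in BAC depleted and 6.88, 6.94 and 23.3 in BAC nondepleted. Like Lama3 it was lower in marrow in both pairings, without overlap, by -2.70 ± 0.72 (adjusted p = 0.0117, and -3.15 without BAC depleted 1) and -3.48 ± 0.73 (0.00706), but it was not called on purification.

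Lamc1, the common gamma chain, read 347, 275 and 331 CPM in BM nonsorted, 319.7, 295 and 299 in BM sorted, 171, 333 and 125 in BAC depleted and 179, 168 and 127 in BAC nondepleted. The unpurified groups did not overlap, with marrow higher (1.01 ± 0.30, adjusted p = 0.0282), and the purified groups overlapped. That call was lost without any one of the 6 unpurified libraries (0.0513 to 0.089) and with no filter on low counts (0.0619). Lamc3 stayed at 0.134 to 5.49 CPM and was not called by edgeR over all libraries, but was called on depletion by DESeq2's Wald test and by edgeR without BAC depleted 3 or BAC nondepleted 3.

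Whether the effect of sorting in marrow differed from that of depletion in bone-associated cells was tested as the difference of both effects. Marrow was flow sorted and bone-associated cells were magnetically depleted, so tissue and method of purification cannot be told apart in it. The difference was called for 4 of 36 members, 1 higher and 3 lower, beside 8.06% of all genes in either direction, 5.08% higher and 2.99% lower. Itga6 (-2.74 ± 0.42, adjusted p = 0.00645, and -3.00 without BAC depleted 1) and Itga4 (-1.63 ± 0.38, 0.0299, and -1.60) fell further on sorting of marrow than on depletion of bone-associated cells. Lama1 (-3.10 ± 0.78, 0.0404, and -3.39) rose on depletion and was not called on sorting, and Lama5 (1.55 ± 0.34, 0.0243, and 1.59) fell on depletion and was not called on sorting. The call of Itga6 was kept in all 18 alternative settings. That of Itga4 was lost without any BAC nondepleted library (0.0557 to 0.0732), BM nonsorted 1 (0.0714) or 2 (0.0757) or BM sorted 2 (0.0642), that of Lama5 without BM nonsorted 2 (0.0634) or 3 (0.0568) or BM sorted 2 (0.0577) or 3 (0.0556), and that of Lama1 without any marrow or BAC nondepleted library (0.0647 to 0.103).

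Among the proteins that couple integrins to actin, Fermt3 and Parvg were lower in both purified groups. Of 23 tested genes of the adhesion machinery, 0 were higher and 3 lower on sorting (13.0% called, beside 6.23% of all genes), and 4 were higher and 5 lower on depletion (39.1%, beside 37.3%). Fermt3, the kindlin of blood cells, stood at 47.0 ± 8.55 CPM in BM nonsorted, 0.329 ± 0.151 in BM sorted, 90.9 ± 8.32 in BAC nondepleted and 0.178 ± 0.157 in BAC depleted (-7.15 ± 0.41 on sorting, adjusted p = 1.1e-06). Parvg, the parvin of blood cells, was lower on sorting by -6.29 ± 0.64 (8.44e-05) and Pxn, which encodes the adaptor paxillin, by -0.66 ± 0.11 (0.00289). Between the purified groups 6 were higher and 6 lower (52.2%, beside 47.4%), among them Parvb, another parvin (2.17 ± 0.49, 0.00503), and Zyx, which encodes the actin regulator zyxin (-1.63 ± 0.41, 0.0081). Between the unpurified groups 5 were higher and 4 lower (39.1%, beside 31.7%), with Actn1, an actin cross-linker, higher in marrow (1.43 ± 0.21, 0.00147).

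Basement membrane partners of laminin had 6 of 16 tested genes higher and 0 lower on depletion, so 37.5% were called in either direction, beside 37.3% of all genes. On sorting edgeR and the DESeq2 Wald test both called 0 of them, and 0 had an unadjusted p under 0.05 in edgeR, which called 6.23% of all genes. Nid2, the nidogen that links laminin to collagen IV, stood at 1841 ± 1085 CPM in BAC depleted, 322 ± 38.0 in BAC nondepleted and 454 ± 26.8 in BM sorted (depletion 2.51 ± 0.41, adjusted p = 0.00103). Bcam, a surface receptor for Lama5, stood at 29.2 ± 3.93 CPM in BM nonsorted, 30.4 ± 3.42 in BM sorted, 17.6 ± 8.28 in BAC depleted and 4.09 ± 1.32 in BAC nondepleted, and was higher in unsorted marrow than in BAC nondepleted (2.83 ± 0.36, 0.000717). It was higher on depletion (2.10 ± 0.35, 0.00122), where Lama5 was lower, and was not called between the purified groups (0.78 ± 0.33, 0.0757), where Lama5 was. Between the purified groups 3 partners were higher and 3 lower in marrow (37.5%, beside 47.4%), and between the unpurified groups 6 were higher and 1 lower (43.8%, beside 31.7%), with Col4a1, a chain of collagen IV, higher (2.50 ± 0.52, 0.00688).

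Of 16 tested genes for other integrin ligands, 0 were higher and 3 lower on sorting (18.8% called, beside 6.23% of all genes) and 3 higher and 5 lower on depletion (50%, beside 37.3%). In BM sorted against BAC depleted 0 were higher and 3 lower (18.8%, beside 47.4%), and in BM nonsorted against BAC nondepleted 3 were higher and 5 lower (50%, beside 31.7%). Egfl6, a ligand of the Itga8 receptor, read 1854, 85.3 and 183 CPM in BAC depleted and 1069.9, 117 and 271 in BAC nondepleted, with library 1 highest in both. It read 0.185, 0.509 and 0.439 CPM in BM nonsorted and 0.671, 0.479 and 0.368 in BM sorted, so marrow was under 1 CPM throughout. Npnt, which encodes nephronectin, another ligand of that receptor, stood at 297 ± 114 CPM in BM nonsorted and 47.1 ± 49.5 in BAC nondepleted (2.66 ± 0.65, adjusted p = 0.013). Tnc, which encodes the Itga9 ligand tenascin C, stood at 1729 ± 452 CPM in BM nonsorted and 148 ± 85.5 in BAC nondepleted (3.55 ± 1.03, 0.0255). Icam1, a ligand of the Itgal and Itgam receptors, stood at 46.7 ± 16.8 CPM in BAC depleted and 15.9 ± 1.45 in BM sorted (-1.56 ± 0.30, 0.00235).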

How the data were processed

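Raw read counts of 12 libraries were used as the authors deposited them, 1 row per gene. Per the submitters' processing notes the authors used STAR 2.7.9a, Subread 2.0.1 with featureCounts, MultiQC 1.7 and build GRCm39, and per the labels' protocols total RNA went into a low-input library kit. Neither the annotation release nor the strand setting is stated in the labels. The 1442 rows without a symbol stayed in the library sizes.

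Counts were fitted with edgeR 4.0.16 in R 4.3.3, with TMM scaling and filterByExpr. One model over all 12 libraries (8 residual degrees of freedom, common dispersion 0.0969) tested 15698 genes with the quasi-likelihood F test, and p-values were adjusted by Benjamini-Hochberg over all of them. A call is an adjusted p under 0.05. Fold changes are log2 ± an approximate standard error (fold change over the root of F). Levels are CPM on TMM-scaled library sizes, and levels between genes are compared per kilobase of GENCODE M21 exon (GRCm38). Ratios against 0 counts use a floor of 3 counts over a group, and those against 1 to 3 counts an exact 95% interval. Libraries of the same group differed by far more than counting noise (lowest chi-square over its degrees of freedom 15.2). The method was tested on simulated data, where most changes of 1 on the log2 scale were not called, so a member without a call may still differ.

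Members named with values per library reached a mean of 5 CPM in a group and were called between 2 groups, 22 in all with Itgav, which was sorted on. One of them is counted in the totals but not reported here. The other members were given by range, apart from some chosen after their values were seen. These were Itgax, Itgb7, Itgad, Itga3 and Lama2, and Itga9 in BAC depleted. Itgb1 and Itgb5 were also given per kilobase, and Itgb5 with a fold change between the unpurified groups. Of each pathway list up to 3 called genes per comparison could be named. Members, lists and tests were chosen with earlier results of these data known. Other settings tried were upper quartile scaling, the size factors and Wald test of DESeq2 1.42.0, other low-count filters, fits of only the groups compared, a replicate block, and leaving out each library.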

Additional observations from a re-analysis of the deposited data

Results flagged for a closer look

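The effect of purification differed between marrow and bone-associated cells for 4 members, by edgeR's quasi-likelihood test of the difference with Benjamini-Hochberg adjustment over all genes. On the log2 scale the difference was -2.74 for Itga6 (adjusted p = 0.00645) and -1.63 for Itga4 (0.0299), both falling further on sorting of marrow than on depletion of bone-associated cells. Lama1 differed by -3.10 (0.0404), with a call on depletion and none on sorting. Lama5 differed by 1.55 (0.0243), with lower levels on depletion and no call on sorting. Macrophage transcripts differed between the unpurified groups as well, at 5155 to 5831 CPM in BM nonsorted and 13079 to 14785 CPM in BAC nondepleted over 12 markers. Their part in these 4 differences was not tested. Sorting and depletion are different methods, so tissue and method cannot be told apart in these differences.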

How the results depend on the processing

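Over all settings 2496 values of tested members were recomputed, of which 2387 kept direction and side of the threshold, 68 lost their call, 37 gained one and 4 changed sign with a call on one side. All 7 calls on sorting held in every setting, as did 14 of 16 on depletion, 15 of 17 between the purified groups, 10 of 17 between the unpurified groups and 1 of 4 for the difference of effects.

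Laminins called on sorting were 2 in place of 1 when only these groups were fitted. Leaving out 1 library at a time gave 10 to 14 members called between the unpurified groups, 3 to 6 matrix-binding integrins and 4 to 6 laminins, and 1 to 6 members for the difference of effects. DESeq2's Wald test called 8 members for that difference in place of 4. Leaving out 1 library gave log2 values of -1.76 to 0.97 on depletion, -1.68 to 1.04 between the purified groups and -0.62 to 2.13 for the difference of effects for Itga3, where the value with the other sign came without BAC depleted 3 and was called (adjusted p = 0.000766, 0.00832 and 0.00705). For Itga9 the difference of effects ran from -0.46 to 0.92, the latter without BAC depleted 2 (0.0286). The cause of these changes was not tested.

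With the replicate block the calls were 7, 16, 17 and 17 in the comparisons of groups and 3 for the difference, where Lama1 was lost (0.0574). Deviations from group means correlated at -0.223 to 0.237 over 18 same-numbered pairs (median 0.0330), with 3 pairs over 0.1. Over 36 differently numbered pairs they correlated at -0.327 to 0.254 (median -0.0144), again with 3 over 0.1. Not every library correlated best with one of its own number. With 3 libraries per group these values cannot decide whether same-numbered libraries were paired.

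Depth limits the members at 0 to 3 counts in a purified group, Itgam and Itgax, whose fitted fold changes depend on the prior count and were therefore given as ratios of counts.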

Other observations

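Set against the summed macrophage markers, a ratio chosen after the values were seen, Itgam stood at 0.962% ± 0.108 of the sum in BM nonsorted and 0.994% ± 0.0463 in BAC nondepleted (mean ± SD, n = 3). Itga4 stood at 0.727% ± 0.0896 and 0.635% ± 0.0657, and the groups overlapped for both. Itgb2 (2.80% ± 0.381 and 1.96% ± 0.115), Itga6 (1.78% ± 0.206 and 1.46% ± 0.0577) and Itgal did not overlap between the groups. Itgal read 1.62%, 1.46% and 0.668% in BM nonsorted and 0.309%, 0.231% and 0.474% in BAC nondepleted. For these 3 members all BM nonsorted libraries lay above all BAC nondepleted ones. Lama3 had the opposite order, at 0.0299% ± 0.0143 and 0.0989% ± 0.00776, without overlap.

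Single BAC depleted libraries were far from the others of their group for several members, and not the same library each time. Itga3 read 16.4, 8.84 and 151 CPM in libraries 1 to 3, Lama2 15.8, 136 and 3.08 and Itga9 22.0, 84.5 and 18.3. BAC depleted 3 was high for Itga3, and BAC depleted 2 for Lama2 and Itga9. Schwann cell markers, whose basement membranes hold Lama2, summed to 25.5 to 147 CPM over the BAC depleted libraries and 2.22 to 5.78 CPM over the BAC nondepleted ones, and their part in the level of Lama2 was not tested. Thbs1, which encodes thrombospondin 1, made up 8.11% of the counts of BAC depleted 3 and 1.38% and 2.77% of those of libraries 1 and 2.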
